A study of Homo sapiens with 6 samples.

Results

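The IFIT family comprises IFIT1, IFIT2, IFIT3 and IFIT5, and its 4 genes were taken by exact symbol from the 29845 genes of the deposited table, in which each matched 1 row. All 4 passed the filter on low counts, with at least 292 reads in every library. RNA was measured in A549, an established human lung epithelial cancer line. The cells were transfected by Lipofectamine with a pIRES-hrGFP vector, which held the FLAG-tagged TFAM gene in the TFAM-OE group and no insert in the control, so both groups carried the vector and received plasmid DNA. Untransfected cells were not analysed here. Each group had 3 libraries of polyadenylated RNA, which the study calls biological replicates. The comparison asked which transcripts changed when TFAM, a protein that packages and transcribes mitochondrial DNA, was supplied in excess.

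IFIT proteins are built from tetratricopeptide repeats, short helical units that fold into an RNA-binding groove. They are nearly absent from resting cells and are made in response to viruses and interferons. IFIT1 binds mRNA whose cap lacks methylation of the first ribose, as many viral RNAs do, and keeps it from the ribosome. IFIT3 binds IFIT1 and strengthens that recognition, IFIT2 joins the same complex and binds AU-rich RNA, and IFIT5 binds RNA with an uncapped triphosphate end. Their transcription is driven by ISGF3, a complex that includes STAT2 and IRF9 and forms below the type I and type III interferon receptors, and also by IRF3 directly. Both bind the interferon-stimulated response element (ISRE) of the promoter.

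The ISRE core is shown because it is the element through which ISGF3 reaches these genes. The letters GAAANNGAAA were searched on both strands of RefSeq promoter windows (GRCh38.p14), which run from 250 bases before to 50 bases after each start site. IFIT1, IFIT3 (2 start sites) and IFIT5 had such windows. IFIT2 had none, so its promoter was not searched. The stretches are given on the plus strand of chromosome 10, the strand of all 4 genes, and the capitals mark the matches, which all lie in the reverse orientation, TTTCNNTTTC. The IFIT1 stretch is chr10:89392495-89392541, the IFIT3 stretches are chr10:89327829-89327896 and chr10:89332423-89332499, and the IFIT5 stretch is chr10:89414513-89414542.
IFIT1: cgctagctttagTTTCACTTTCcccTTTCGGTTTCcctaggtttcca
IFIT3, first start site: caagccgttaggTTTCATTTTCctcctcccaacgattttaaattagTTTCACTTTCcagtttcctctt
IFIT3, second start site: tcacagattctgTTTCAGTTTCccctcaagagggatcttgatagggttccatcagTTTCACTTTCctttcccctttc
IFIT5: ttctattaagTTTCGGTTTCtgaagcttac

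With the start site counted as 0, the IFIT1 matches began at -116 and -103, those at the first IFIT3 start at -156 and -122, and those at the second at -94 and -51. IFIT5 had 3 matches, of which the one printed began at -45 and the others at -19 and -4. No match overlapped another. Of 35116 promoter windows, 3.57% held at least 1 match, 0.259% at least 2 and 0.037% at least 3. The IFIT1 stretch lies upstream of the annotated gene and in an intron of 1 transcript of LIPA, a gene read from the opposite strand. Both IFIT3 stretches lie in introns of longer IFIT3 and LIPA transcripts, with 16 bases of the second in an exon of some IFIT3 transcripts, and the IFIT5 stretch lies in an exon of the same LIPA transcript. A match is a description of these letters and does not show binding.

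The 6 libraries held between 26650854 and 37321956 reads assigned to genes. The TFAM gene itself was read at 76.1, 70.2 and 72.7 CPM (reads scaled to a common library size) in the control and at 71.9, 77.3 and 83.0 CPM in the libraries labelled TFAM-OE. Its log2 fold change was 0.08 (SE 0.10, 95% interval -0.13 to 0.30, edgeR adjusted p = 0.623), so the RNA does not separate the groups by TFAM. The study reports TFAM overexpression at the protein level, by western blot against the FLAG tag, which was not measured here. The treated libraries are called by their label throughout. Keratins KRT8, KRT18 and KRT7 stood near 1864, 1165 and 2829 CPM in the control, while EPCAM and CDH1 were low, and of the 5 alveolar type II markers SFTPB, SFTPC and NKX2-1 had under 10 reads in every library, NAPSA had 19 to 63 and ABCA3 had 2193 to 3265. The endothelial markers PECAM1, VWF and CDH5, the leukocyte markers PTPRC and LYZ, and the fibroblast markers COL3A1 and DCN likewise had under 10 reads in every library, while the fibroblast marker COL1A1 had 83 to 173. The leukocyte list summed to between 3.04 and 3.66 CPM in the control and between 1.07 and 1.82 CPM in the libraries labelled TFAM-OE, through CD68 alone, a lysosomal protein that other cells also make. Mitochondrially encoded genes took 2.67% to 2.80% of the reads in the control and 3.71% to 4.07% in the other group. The part of either difference in the IFIT values was not tested.

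All 4 IFIT genes fell in the libraries labelled TFAM-OE. Transcripts of IFIT1, IFIT2 and IFIT3 were 6.02-, 7.17- and 6.70-fold lower in FPKM, a level per length of transcript, and that of IFIT5 2.45-fold lower. Together the 4 genes summed to 169 ± 8.34 FPKM (fragments per kilobase of transcript, scaled to the mapped total; SD, n = 3) in the control and to 30.7 ± 7.07 FPKM in the libraries labelled TFAM-OE, 5.50-fold lower. Their share of all reads was between 0.0693% and 0.0760% in the control and between 0.0106% and 0.0169% in the other group. In bulk RNA, fewer cells expressing a gene and less RNA per cell cannot be told apart.

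**Figure D1:**
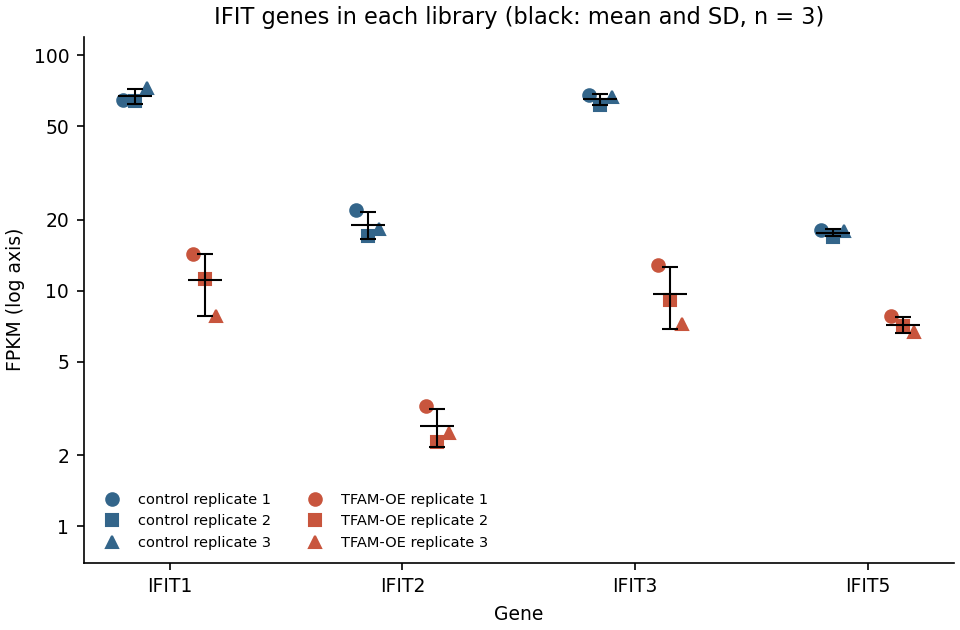
FPKM (log axis) of each IFIT gene in the 3 control and 3 TFAM-OE libraries, with points for libraries and black marks for the mean and SD. For each gene the 3 control libraries lie above the 3 labelled TFAM-OE, and IFIT2 is lowest in the latter, between 2.29 and 3.23 FPKM.

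IFIT1, the sensor of incompletely methylated caps, was covered by 11339, 9339 and 14703 control reads, against 2636, 2263 and 1216 in the libraries labelled TFAM-OE. Per length this was 64.37, 64.16 and 72.55 FPKM against 14.36, 11.23 and 7.81 FPKM. Every control library was far above every library of the other group, and the TFAM-OE libraries were spread more widely than the controls. The log2 fold change was -2.55 (SE 0.22, 95% interval -3.04 to -2.06, edgeR quasi-likelihood adjusted p = 1.4e-04). The gene, ENSG00000185745.9, lies at chr10:89392546-89406487 (GRCh38).

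IFIT2, the AU-rich RNA binder, had 2926, 1878 and 2813 reads in the control against 448, 349 and 292 reads. Its FPKM values were 21.96, 17.06 and 18.35 in the control and 3.23, 2.29 and 2.48 in the other group. The groups did not overlap, and control replicate 1 stood above the other controls. Its log2 fold change was -2.81 (SE 0.17, 95% interval -3.18 to -2.44, edgeR adjusted p = 1.8e-05), and its interval overlapped those of IFIT1 and IFIT3. The order of these 3 genes was not fixed, since with limma on log2(FPKM + 1) IFIT2 was at -2.46, IFIT1 at -2.52 and IFIT3 at -2.66. The gene is ENSG00000119922.8, chr10:89283694-89309271.

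IFIT3, the partner that stabilizes IFIT1, was covered by 6834, 5109 and 7712 control reads, against 1347, 1053 and 645 in the libraries labelled TFAM-OE. Its FPKM values were 67.79, 61.33 and 66.49 against 12.83, 9.13 and 7.24. Again every control library was above every library of the other group, with TFAM-OE replicate 1 the highest of its group and replicate 3 the lowest. The log2 fold change was -2.71 (SE 0.21, 95% interval -3.17 to -2.24, edgeR adjusted p = 8.0e-05). The gene is ENSG00000119917.13, chr10:89327307-89377473.

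IFIT5, which binds triphosphate RNA as a single protein, had 2774, 2152 and 3154 reads in the control against 1249, 1243 and 905. Its FPKM values were 18.09, 16.99 and 17.88 in the control and 7.82, 7.09 and 6.68 in the other group. These were the tightest replicates of the family in both groups, and they did not overlap. The log2 fold change was -1.27 (SE 0.11, 95% interval -1.52 to -1.01, edgeR adjusted p = 2.1e-04), and this interval lay wholly above those of the other members. The gene is ENSG00000152778.8, chr10:89414568-89421605.

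Calls required an adjusted p under 0.05 together with a fold of 2 or more, or of 0.5 or less. All 4 members were called lower, against 2.07% of the 16555 genes tested, and none was called higher, against 0.447%. At an adjusted p below 0.05 alone, 4.81% of all genes were lower and 3.48% higher, and at an unadjusted p below 0.05 the shares were 13.2% and 12.2%. Every TFAM-OE library was below every control library for all 4 members, as for 15.8% of all genes. The median log2 fold change was -2.63 over the members and -0.01 over all genes tested. Ordered from the lowest log2 fold change, IFIT2 was number 31, IFIT3 number 35, IFIT1 number 48 and IFIT5 number 289 of the 16555.

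Per length, IFIT1 (67.0 ± 4.78 FPKM) and IFIT3 (65.2 ± 3.42) were the most abundant members in the control, and their libraries overlapped. IFIT2 (19.1 ± 2.54) and IFIT5 (17.7 ± 0.584) followed. Their ranges across libraries overlapped, but IFIT2 was above IFIT5 within every control library. In the libraries labelled TFAM-OE, the ranges of IFIT1 (11.1 ± 3.28), IFIT3 (9.73 ± 2.84) and IFIT5 (7.20 ± 0.577) overlapped. Within each of these libraries, however, IFIT1 was highest, followed by IFIT3 and then IFIT5. IFIT2 (2.67 ± 0.497) stood below all of them. By mean FPKM among 29656 genes, IFIT1 stood at rank 840 in the control and 4380 in the other group, and IFIT2 at 2885 and 8919.5. No source used here gives the transcript lengths behind the deposited FPKM. With CPM divided by the length of the canonical transcript, IFIT1 and IFIT3 were again close in the control, at 84.3 and 84.4 CPM per kilobase, and IFIT2 was again lowest in the other group, at 3.28.

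The makeup of the family shifted towards IFIT5. Its share of the summed FPKM was 10.5%, 10.6% and 10.2% in the control libraries and 20.5%, 23.8% and 27.6% in those labelled TFAM-OE. IFIT3 went from 38.6% ± 0.725 to 31.4% ± 1.92, IFIT2 from 11.3% ± 1.26 to 8.80% ± 1.31 and IFIT1 from 39.7% ± 2.06 to 35.9% ± 3.12. The groups did not overlap for IFIT5, IFIT3 and IFIT2, but they did for IFIT1, which was at 37.4% in control replicate 1 and 37.8% in TFAM-OE replicate 2. These shares are given as a description.

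Ratios of reads between members within a library need no scaling, and 6 pairs were compared by exact two-sided permutation tests. With 3 libraries against 3 the smallest p is 0.1, so none could pass 0.05. The log2 ratio of IFIT3 to IFIT5 was 1.30, 1.25 and 1.29 in the control and 0.11, -0.24 and -0.49 in the other group, a difference of -1.49 (exact permutation p = 0.1, 0.2 after adjustment over the 6 pairs). The ratio of IFIT1 to IFIT5 differed by -1.33 and that of IFIT2 to IFIT5 by -1.55, with the same p and no overlap between groups. Among the other members the groups overlapped. The differences were 0.22 for IFIT1 to IFIT2 (exact permutation p = 0.4), 0.15 for IFIT1 to IFIT3 (p = 0.2) and -0.07 for IFIT2 to IFIT3 (p = 0.6). Since no pair could pass 0.05, these tests cannot decide whether IFIT1, IFIT2 and IFIT3 changed unequally.

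**Figure D2:**
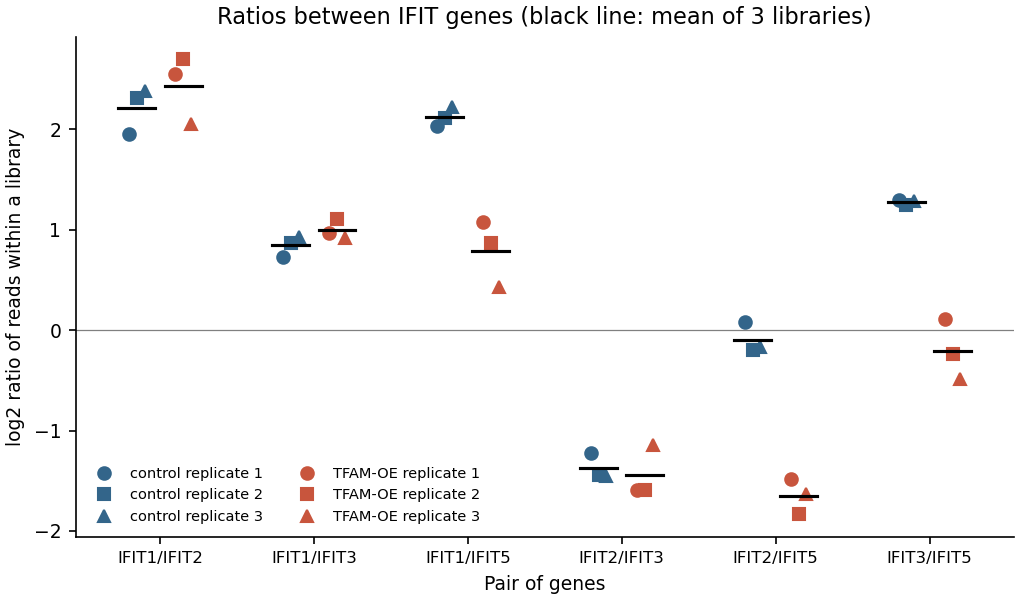
Log2 ratio of reads between each pair of IFIT genes within a library, with points for libraries and black lines for the mean of 3. The pairs with IFIT5 drop by 1.33 to 1.55 between the groups without overlap, and the 3 pairs without IFIT5 overlap.

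The libraries labelled TFAM-OE differed among themselves, and not only in IFIT genes. From replicate 1 to 3, KRT7 fell, at 3263, 2877 and 2408 CPM, while the translation factor gene EIF3A rose, at 89.4, 146 and 205 CPM. Replicate 1 was the highest of the 3 for every member, and replicate 3 was the lowest for IFIT1, IFIT3 and IFIT5, while IFIT2 was lowest in replicate 2. In CPM, the highest of these libraries was 2.04 times the lowest for IFIT1, 1.97 times for IFIT3, 1.46 times for IFIT2 and 1.30 times for IFIT5. The coefficient of variation in CPM was 34.1%, 34.0%, 22.8% and 13.1% in the same order, against 9.36%, 4.93%, 11.0% and 3.45% in the control.

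Genes were ranked by how closely their profile over the 6 libraries followed the mean profile of the 4 members, as the root mean square of the difference in log2 CPM after centring each gene on its mean. Among 13187 other genes with a mean of at least 50 reads, the nearest were BATF2 (0.119), IFI16 (0.122), IFITM3 (0.182), HLA-F (0.185) and GBP1 (0.191), where the family profile itself had a root mean square of 1.20. Their log2 fold changes were -2.50, -2.23, -2.31, -2.05 and -2.14. IFIT1 and IFIT3 were the nearest genes to each other, at 0.111, ahead of MX1 (0.140) and BATF2 (0.141) for IFIT1 and of BATF2 (0.135) and IFI6 (0.135) for IFIT3. IFIT2 was nearest to IFI44 (0.170), IFIT3 (0.170) and LAMP3 (0.173). IFIT5 was nearest to none of its family but to PPM1K (0.0976), PLSCR1 (0.105) and DHRS9 (0.112), whose log2 fold changes were -1.27, -1.38 and -1.24. The measure compares 6 libraries in 2 groups, and any gene with a fall of like size scores well.

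**Figure D3:**
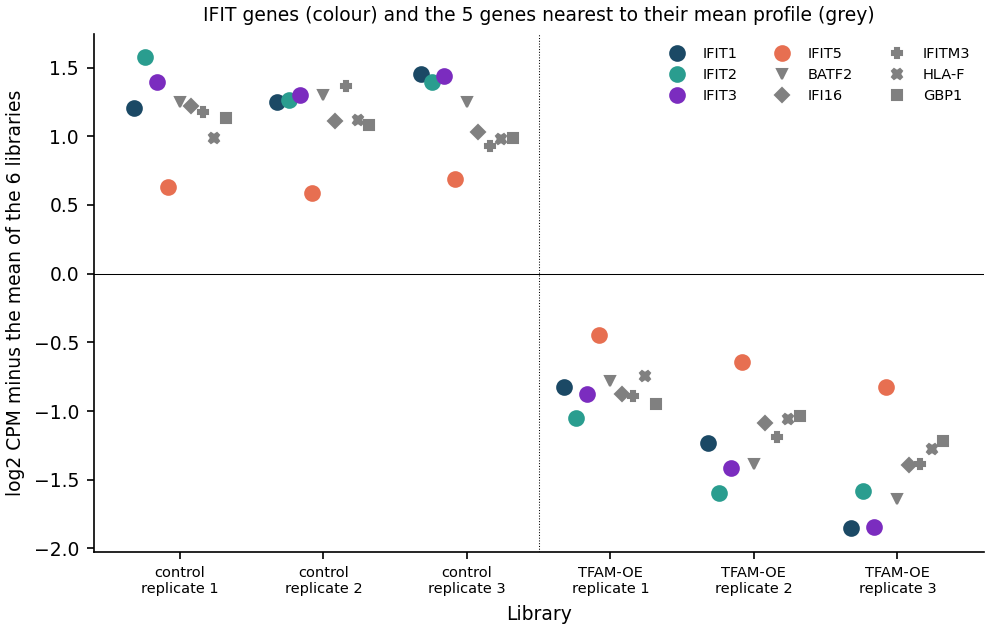
Log2 CPM minus the gene's mean over the 6 libraries, for the 4 IFIT genes in color and the 5 genes nearest to their mean profile in grey, with 1 column per library. IFIT5 lies nearest to 0 in every library, with the grey genes and the other 3 IFIT genes farther out.

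The 4 genes stand in a row on chromosome 10, in the order IFIT2, IFIT3, IFIT1 and IFIT5, all on the plus strand and each with 2 exons in its canonical transcript (GENCODE 44). The annotation placed 46 genes within 1 Mb of the cluster, of which 18 were in the table and 11 were tested. Of these, 1 was called lower and 0 higher by edgeR, and DESeq2 also called 1, beside 2.07% and 0.447% of all genes. At an unadjusted p below 0.05, 5 were lower and 1 higher, beside 13.2% and 12.2% of all genes. Their median log2 fold change was -0.28.

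The neighbor called lower was CH25H, which makes the antiviral oxysterol 25-hydroxycholesterol. Control libraries gave it 58, 23 and 38 reads, and those labelled TFAM-OE gave 1, 0 and 4, so its log2 fold change of -4.47 (SE 0.63, edgeR adjusted p = 0.0034) rests on few reads and moved to -6.04 without TFAM-OE replicate 3 and to -3.84 without TFAM-OE replicate 2. The call was lost when limma was run on log2(FPKM + 1), where the change was -0.64, and with 0.1 added the change was -2.48. FAS, a death receptor, had a log2 fold change of -0.89 (SE 0.13, edgeR adjusted p = 0.0038), past the p threshold but not the fold threshold.

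LIPA, the lysosomal acid lipase, runs on the opposite strand across IFIT2, IFIT3 and IFIT1. It was at 131, 117 and 120 CPM in the control and at 102, 96.7 and 97.3 CPM in the other group (log2 fold change -0.32, SE 0.09, edgeR adjusted p = 0.060). Exons of any LIPA transcript share 65 bases with IFIT2 exons and 94 with IFIT3 exons, and 0 with IFIT1 and IFIT5. No source used here says whether the counting used strand, so reads in those bases cannot be assigned to either gene with certainty. The other neighbors tested lay between -0.41 (PANK1-AS1) and 0.63 (ACTA2-AS1) and none passed the adjusted p. They were STAMBPL1 (-0.28), ACTA2 (-0.38), ANKRD22 (0.30), RNLS (-0.02), PANK1 (0.00) and KIF20B (-0.21), and the last 3 changed sign when single libraries were left out, as PANK1 did under other scalings. The related IFIT1B, between IFIT3 and IFIT1, had 3, 1 and 1 control reads against 0, 1 and 1, and the pseudogene IFIT1P1 on chromosome 13 had 1 read in all, both too few to test. IFIT genes share sequence and only uniquely mapped reads were counted, so any reads that fit several members would be missing, and their number was not measured.

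**Figure D4:**
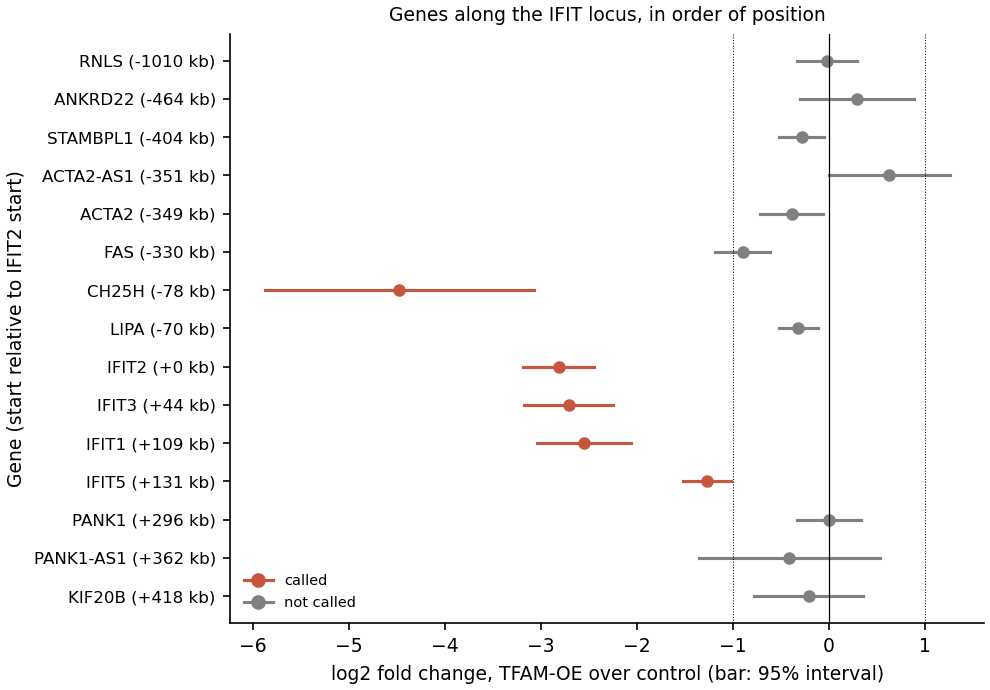
Log2 fold change (TFAM-OE over control) of the tested genes within 1 Mb of the IFIT cluster in order of position, with bars for the 95% interval and dotted lines at -1 and 1. The 4 IFIT genes lie between -2.81 and -1.27, CH25H at -4.47 has the widest interval, and the remaining neighbors lie between -0.89 and 0.63.

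Genes upstream of the family, from interferons to ISGF3, formed a list of 18 genes in the table, of which 15 were tested. Of these, 6 were called lower and 0 higher by edgeR, and DESeq2 called 6 in all, beside 2.07% and 0.447% of all genes. At an unadjusted p below 0.05, 8 were lower and 2 higher, beside 13.2% and 12.2% of all genes, and the list's median was -0.28. Among ligands, IFNB1, a type I interferon, was at 5.18, 4.52 and 3.60 CPM in the control. It was at 0.376, 0.138 and 0.167 CPM in the libraries labelled TFAM-OE (log2 fold change -4.28, SE 0.32, edgeR adjusted p = 7.2e-05). The type III interferons IFNL1 (-3.87), IFNL2 (-3.40) and IFNL3 (-3.47) also fell. For all 4 ligands every TFAM-OE library was below every control library, as for 15.8% of all genes. IFNL2 and IFNL3 are near-identical copies, so the division of reads between them is uncertain. IFNA1 and IFNE had too few reads to test.

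Receptor chains and kinases did not pass the test. IFNAR1 was at -0.23 (SE 0.14), IFNAR2 at -0.11 (SE 0.10), JAK1 at -0.00 (SE 0.15) and TYK2 at 0.37 (SE 0.13) on the log2 scale, with edgeR adjusted p between 0.098 and 0.994, and the sign of JAK1 depended on the scaling. Of the ISGF3 subunits, STAT2 was at 41.6, 56.3 and 62.4 CPM in the control and 29.4, 26.4 and 23.0 CPM in the other group (-1.02, SE 0.16, edgeR adjusted p = 0.0055). The call of STAT2 was lost without control replicate 2, at -0.98, without control replicate 3, at -0.89, and without TFAM-OE replicate 3, at -0.93, and also under a replicate block, at -1.01, and with limma on log2(FPKM + 1), at -0.93. IRF9, the DNA-binding subunit, had only 5, 1 and 5 control reads against 1, 2 and 0 and was not tested.

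Of the interferon regulatory factors, IRF7, which amplifies interferon production, was at 119, 154 and 148 CPM in the control and 50.8, 35.7 and 24.3 CPM in the libraries labelled TFAM-OE (log2 fold change -1.93, SE 0.23, edgeR adjusted p = 0.0013). As with IFIT1, IFIT3 and IFIT5, its highest TFAM-OE library was replicate 1 and its lowest replicate 3. That order was also seen in KRT7 and the opposite order in EIF3A, so it is not particular to these genes. IRF1 passed the adjusted p but not the fold threshold (-0.61, SE 0.13, edgeR adjusted p = 0.024). IRF3, the factor that can drive IFIT genes without interferon, was at 0.29 (SE 0.11, edgeR adjusted p = 0.143).

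**Figure D5:**
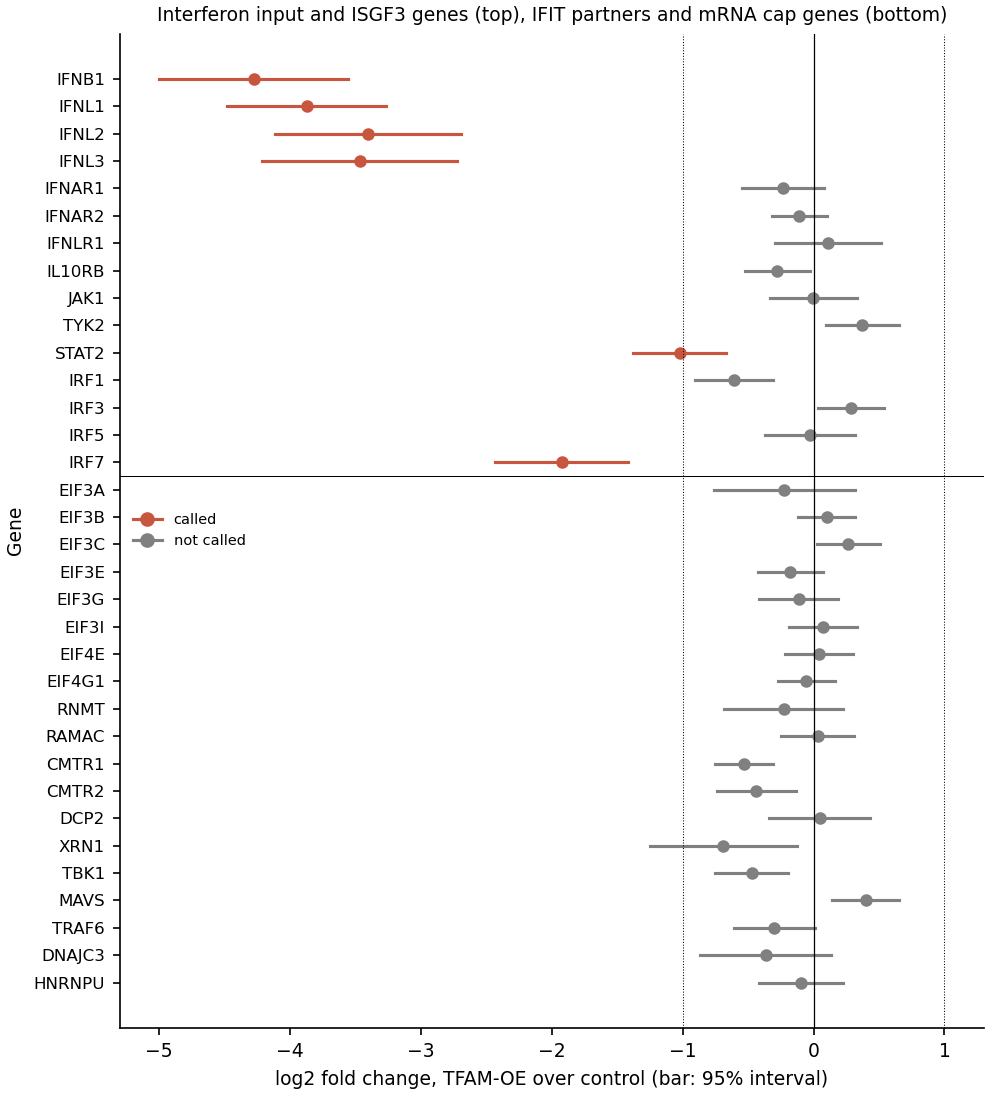
Log2 fold change (TFAM-OE over control) of the tested genes of interferon input and ISGF3 (top) and of IFIT partners and cap enzymes (bottom), with bars for the 95% interval and dotted lines at -1 and 1. IFNB1 (-4.28), the 3 IFNL genes, STAT2 and IRF7 are called lower, and no gene of the lower panel is called.

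Genes for proteins that act with IFITs or set the cap state they read were listed too. This list held translation initiation factors, cap methyltransferases, decay enzymes and signalling partners, 20 in the table and 19 tested. edgeR called 0 of the 19, as did DESeq2, which is near the 2.07% and 0.447% of all genes that were called. At an unadjusted p below 0.05, 4 were lower and 2 higher, beside 13.2% and 12.2% of all genes, and the list's median was -0.11. CMTR1, which adds the methyl group whose absence IFIT1 detects, was at 59.0, 67.6 and 67.5 CPM in the control and 46.7, 43.9 and 43.7 CPM in the other group. Its log2 fold change of -0.53 (SE 0.10, edgeR adjusted p = 0.013) passed the p threshold but not the fold threshold, as did that of TBK1, a kinase of IRF3 that binds IFIT3 (-0.47, SE 0.13, edgeR adjusted p = 0.047). CMTR2, which methylates the next ribose, was at -0.44, RNMT, the cap guanine methyltransferase, at -0.23, MAVS, the adaptor of RNA sensing, at 0.40 and DNAJC3, an inhibitor of the kinase PKR, at -0.37, and these did not pass. Other genes for tetratricopeptide repeat proteins, such as cochaperones and subunits of the anaphase-promoting complex, numbered 21 tested. edgeR called 0 of the 21, as did DESeq2, again near the shares of all genes, and at an unadjusted p below 0.05 0 were lower and 2 higher, beside the same 13.2% and 12.2%. CDC16, of the anaphase-promoting complex, passed the adjusted p alone (0.46, SE 0.11, edgeR adjusted p = 0.036), and the list's median was 0.01.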

How the data were processed

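RNA from 3 control and 3 TFAM-OE libraries of A549 cells was analysed from 2 deposited tables. According to the study's methods, the authors trimmed reads with the FASTX-Toolkit, aligned them to GRCh38 with TopHat2 and counted uniquely mapped reads per gene. The authors deposited these raw counts and also FPKM values with 2 decimals. The strand setting, the counting program and the annotation were not given in the sources used here. The counts summed to between 26650854 and 37321956 reads per library. They are reads without molecular identifiers, so the spread between 3 libraries per group limits every comparison. P-values measure only that spread, since the labels do not say that the replicates were separate cultures.

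Libraries were grouped by label, without pairing. In R (4.3.3), genes kept by filterByExpr (16555) were TMM-scaled and tested in edgeR (4.0.16) by its two-sided quasi-likelihood test, with Benjamini-Hochberg adjustment over all of them. Log2 fold changes are TFAM-OE over control, and CPM are TMM-scaled. Alternatives used DESeq2 (1.42.0), limma-trend (3.58.1) on log2(FPKM + 0.1) or log2(FPKM + 1), other scalings and filters, a replicate block and each library left out in turn. The fit was tested on simulated data. Read ratios were compared by exact permutation tests in Python (3.11.15) with scipy (1.17.1). Gene positions came from GENCODE 44, which held 97.2% of the genes.

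The family, the gene lists and the tests were chosen with earlier results of these data known. Lists were written from general knowledge, and neighbors were all annotated genes within 1 Mb. Some listed genes are not reported here and were left out of the counts of their lists. Named genes were the members, TFAM, called list genes, a set of uncalled genes of the lists chosen by name, tested neighbors, and the genes with the most similar profiles (5 for the family mean, 3 for each member). CDC16 and EIF3A fall outside that rule and were named after their values were seen. IFNA1, IFNE, IFIT1B and IFIT1P1 also fall outside it and had too few reads to test. Marker genes were given to check the cell type.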

Additional observations from a re-analysis of the deposited data

How the results depend on the processing

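All 64 values of the 4 IFIT genes over 16 alternatives kept their direction and their call. The setting of adjusted p alone keeps the main fit and only drops the fold threshold, so no called gene could lose its call there. The log2 fold change ranged from -2.82 to -2.32 for IFIT1, -3.01 to -2.46 for IFIT2, -2.99 to -2.50 for IFIT3 and -1.36 to -1.17 for IFIT5, and the highest adjusted p were 0.0036, 7.0e-04, 0.0016 and 0.0060. The number of genes called over the whole table moved more. It was 416, but 657 with every gene that had a read, 270 with a mean of at least 50 reads, 119 with limma on log2(FPKM + 1), 1372 at adjusted p alone, and 204 to 561 with single libraries left out (204 without control replicate 1, 212 without control replicate 2, 246 without TFAM-OE replicate 2). At adjusted p alone, 2 partner and cap genes, 1 other repeat protein gene and 2 neighbors passed. With a mean of at least 50 reads or limma on log2(FPKM + 1), 0 neighbors were called. The smaller count with a minimum of reads comes with fewer genes tested, and the causes of these moves were not tested.

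No pairing by replicate number was detected. The deviations of same-numbered libraries from their group means correlated at -0.36, -0.02 and -0.44 over 13191 genes. With so few libraries, such correlations cannot show whether same-numbered libraries were prepared together. With the replicate block, 255 genes were called, all 4 IFIT genes among them. STAT2 lost its call under the block, at -1.01.

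The difference in the log2 ratio of IFIT2 to IFIT3 ran from -0.22 to 0.0085 with single libraries left out. Small changes that turned sign were JAK1 (0.0024 with every gene, 0.012 with DESeq2, 0.0055 with RLE and 3.7e-04 with upper-quartile scaling, -0.19 to 0.14 with libraries left out) and PANK1 (-0.0076 with at least 50 reads, -0.017 by library size, -0.0057 and -0.0028 on log2 FPKM with 0.1 and 1 added, -0.083 to 0.080 with libraries left out). RNLS ran from -0.071 to 0.074 and KIF20B from -0.41 to 0.067 with libraries left out. The cause of these turns was not tested. Values of genes with few reads, such as CH25H and IRF9, are uncertain, and the reason for their low counts was not tested.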
